A study of Mus musculus with 6 samples.

Results

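The proteasome is the protease complex that degrades ubiquitin-tagged proteins, and its genes were followed through the cell classes of the mouse testis and between smoke-exposed and control animals. Members were all genes of the count tables whose symbol is Psm followed by a letter from a to g, a number and any further letters, with pseudogenes left out. This gave 50 of 30905 genes, and all 50 had UMIs (unique molecular identifiers, each marking a captured RNA molecule). Of the 50, 49 encode subunits, assembly chaperones, activators or inhibitors of the proteasome. Psmc3ip has a matching symbol but encodes a cofactor of meiotic recombination (Hop2), so it is named separately where it is described, although every count over members includes it.

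Testis cells of male ICR mice, an outbred stock, were profiled in 3 control and 3 smoking libraries by droplet single-cell RNA-seq. Mice were bought at 6 weeks of age and adapted for 1 week, and the smoking group then spent 30 minutes per day for 12 weeks in a chamber with the smoke of 15 cigarettes, each with 1.1 mg nicotine and 11 mg tar, at 3.47 mg/m3. Control mice received no smoke, and their labels give the same 30 minutes per day and 12 weeks. An age of 8 weeks is also given and does not match those times. Each group had 7 mice, and no label ties a library to a mouse, which means that the tests see library-to-library spread and nothing else. The libraries held 39607204 to 78455606 UMIs, and 47954 of 54253 barcodes were retained. Clusters were formed without the members and named from marker genes, which gave 11 classes. Red blood cells, with 36 barcodes and 2 to 11 per library, were left out, and the other 10 had 20 or more in each library. They are called here spermatogonia, spermatocytes, round and elongating spermatids, Sertoli cells, Leydig cells, macrophages, mesenchymal, endothelial and peritubular myoid cells, each in the sense of cells like these by their markers. The sizes of the 10 classes ran from 203 barcodes (peritubular myoid) to 7777 (round spermatids), and 51.6% of retained barcodes stayed unnamed. Smoking library 1 stood apart in 2 somatic classes. Its peritubular myoid barcodes had 305 CPM of the 8 myoid markers (11895 to 23386 in the other libraries) and its Leydig barcodes 14225 CPM of the 8 Leydig markers (27946 to 33113), with 75003 CPM of elongating spermatid markers (22525 to 39246). Of 53886 distinct barcodes, 365 occurred in more than 1 library. Levels are given as CPM, the UMIs of a gene relative to all UMIs of a class in a library, scaled to a total of 1000000. A library of this chemistry counts the 3′ end of each molecule, so levels of different genes were compared without scaling by length.

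The proteasome's 20S core is a barrel of stacked rings. The outer α rings, from the Psma genes, gate the entry, and the inner β rings, from the Psmb genes, hold the catalytic sites of Psmb5, Psmb6 and Psmb7. The 19S cap recognises, unfolds and feeds in ubiquitinated proteins with ATPase (Psmc) and non-ATPase (Psmd) subunits, whereas 11S caps (Psme1, Psme2 and Psme3) and PA200 (Psme4) open the core without an ATPase ring. Cells of the immune system and cells exposed to interferon γ swap the catalytic subunits for Psmb8, Psmb9 and Psmb10, which alters the peptides offered on MHC class I. Meiotic cells use the α subunit Psma8 in the place of its close relative Psma7, and PA200 is known for its part in the removal of histones from spermatids.

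The start regions of the genes on which the results below turn were taken from RefSeq (GRCm38.p6) for the 42 members in its promoter table, as windows from 250 bases before to 50 after each annotated start, and searched on both strands. The letters CCGGAAG, the core bound by ETS factors, occurred in 15 of 42 members (35.7%) and in 9.93% of 27025 genes. Psma6 holds it before the downstream of its RefSeq starts (chr12:55398675-55398774, plus strand, bases -150 to -51). Psmc2 holds it on the reverse strand (chr5:21785125-21785274, plus strand, bases -150 to -1) and Psme4 on the forward strand (chr11:30771710-30771739, plus strand, a 30-base site). These 3 genes are shown because their RNA was kept or raised in spermatids, with CCGGAAG or its reverse complement in capitals.
Psma6: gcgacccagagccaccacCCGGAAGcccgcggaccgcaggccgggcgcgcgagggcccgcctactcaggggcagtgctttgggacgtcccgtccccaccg
Psmc2: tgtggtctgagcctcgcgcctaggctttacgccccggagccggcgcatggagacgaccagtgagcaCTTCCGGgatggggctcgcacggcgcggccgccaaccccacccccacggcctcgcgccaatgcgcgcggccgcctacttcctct
Psme4: cgtggccccgccCCGGAAGtgacttgaggc

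The same letters were also in Psmc1, Psmd2 and other members whose RNA was low in elongating spermatids, and no match was found in the windows of Psmf1 and Psmd8, so they do not separate the groups. For the interferon-linked members, a TTCNNNGAA palindrome, the form bound by STAT factors, was found in Psmb8 (chr17:34198087-34198116, plus strand). It occurred in 3 of 42 members (7.14%), the others being Psmd2 and Psmg1, and in 9.55% of all genes. The repeat bound by interferon regulatory factors was found on the reverse strand of Psme1 (chr14:55578493-55578522, plus strand) from 9 bases after the start, in 5 of 42 members (11.9%) and in 3.99% of all genes. The other members with this repeat were Psmb3, Psmd4, Psmd9 and Psmg4. Neither form was found in the windows of the interferon-linked Psmb9 and Psme2, so they do not separate these groups either. The capitals in the 30-base sites below mark the matches in Psmb8 and Psme1.
Psmb8: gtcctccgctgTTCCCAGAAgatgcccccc
Psme1: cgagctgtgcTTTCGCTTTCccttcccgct

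TGACNNNGC, the antioxidant response element core, was in 6 of 42 members (14.3%) and 14.0% of all genes, CCAAT in 35.7% and 41.1%, and GGGCGG in 54.8% and 38.2%. The motifs were chosen after earlier results were known, and a match is only a run of letters.

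The summed RNA of the members was highest in spermatogonia and lowest in elongating spermatids, although single members took other courses. Summed over all 50 members, the level was 9145 ± 434 CPM in spermatogonia, 8046 ± 250.5 in spermatocytes, 5982 ± 158 in round spermatids and 4590.0 ± 129 in elongating spermatids (SD, n = 6 libraries). Somatic classes lay between, from 5300.5 CPM in macrophages to 7216 in Leydig cells (7363 without smoking library 1). The heatmap of levels by class shows that this sum hides opposite courses in the spermatids, where most members were near the floor and a few were at their highest.

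**Figure D1:**
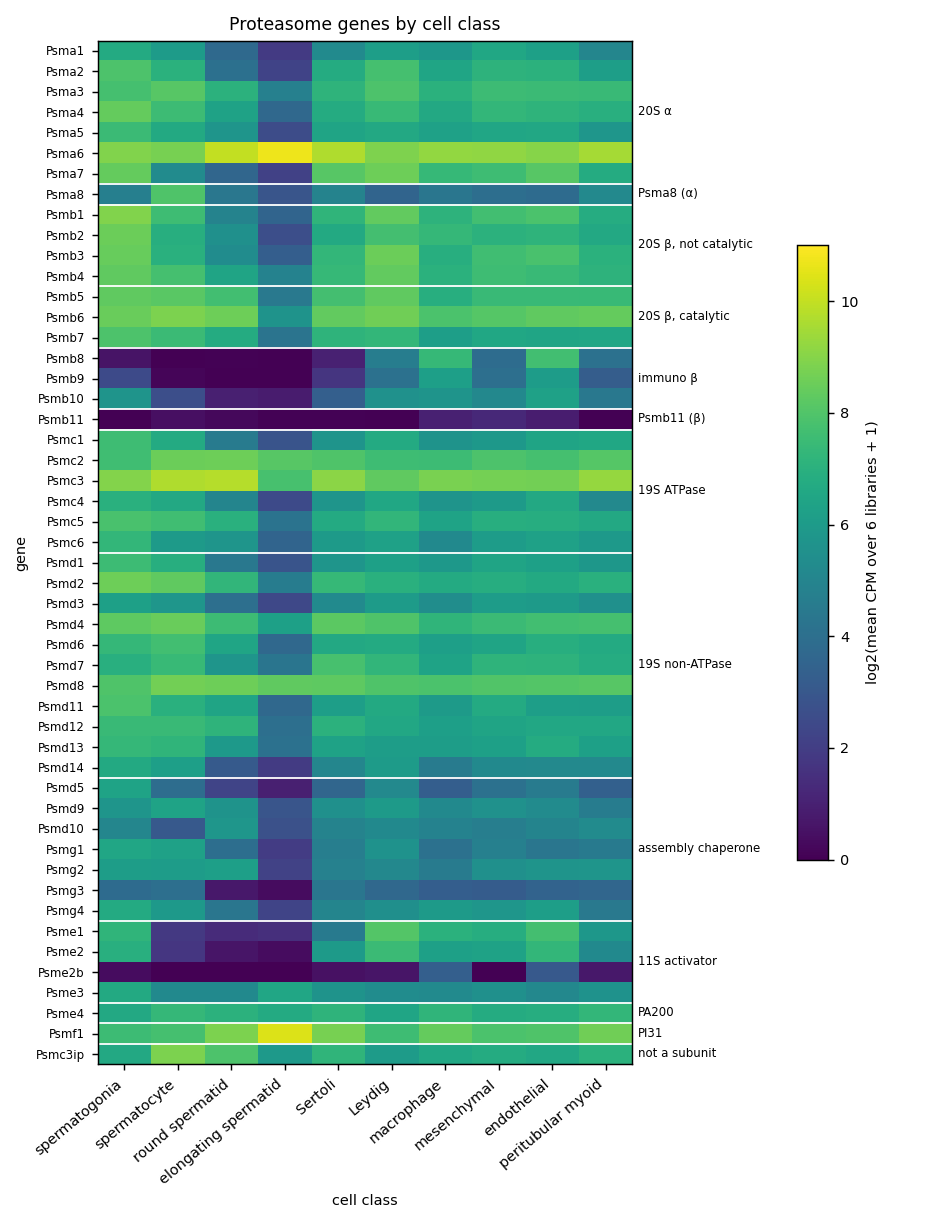
Each row is a gene, grouped by role, and each column a cell class; colour gives log2 of the mean CPM over 6 libraries plus 1, on a scale from 0 to 11. Psma6 and Psmf1 are brightest in elongating spermatids (1688 and 1384 CPM), where most α and β subunit genes are dark, and Psmb8 and Psmb9 are at their brightest in macrophages and endothelial cells.

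Psma7 and Psma8 exchanged places between spermatogonia and spermatocytes. Psma7, the constitutive α4 subunit gene (chr2:180036374-180042433, minus strand), had 352, 304 and 350.0 CPM in control and 316, 319 and 352 CPM in smoking spermatogonia. In spermatocytes it had 36.8, 38.4 and 41.4 CPM in controls and 39.1, 41.5 and 37.6 CPM in smoking libraries. The 6 libraries of each class did not overlap, and the mean level was 8.48-fold lower in spermatocytes. Psma8, the spermatocyte-specific paralog, had 32.2, 17.0 and 29.5 CPM in control and 23.3, 22.1 and 33.3 CPM in smoking spermatogonia. In spermatocytes its levels were 274, 212 and 267 CPM in controls and 247, 260.2 and 235 CPM in smoking libraries, on average 9.50-fold higher. Every spermatocyte library lay above every spermatogonial library for Psma8 and below it for Psma7.

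The log2 ratio of Psma8 to Psma7 UMIs put both in a single value per library. It was -3.67 ± 0.28 in spermatogonia and 2.66 ± 0.14 in spermatocytes (SD, n = 6), a difference of 6.34 ± 0.20 in the same direction in 6 of 6 libraries. An exact two-sided sign-flip permutation test gave p = 0.03125, the smallest that 6 libraries allow, and 0.0391 after Benjamini-Hochberg adjustment over 10 ratio comparisons. In round spermatids the ratio was 0.79 ± 0.12, lower than in spermatocytes by 1.88 on the log2 scale (6 of 6 libraries, exact p = 0.03125, adjusted 0.0391). Elongating and round spermatids differed by 0.07 ± 0.33, with 3 of 6 libraries in either direction (exact permutation p = 0.656). Both genes were by then low: Psma8 had 19.4 and Psma7 11.2 CPM in round spermatids, and 6.4 and 3.4 CPM in elongating ones, from 430 and 251 UMIs in all.

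Within the spermatocyte class, Psma8 was highest in the cluster whose leading genes included Sycp1 and Sycp3, which encode synaptonemal complex proteins, and Meiob, a meiotic recombination factor gene. Psma8 had a mean of 352 CPM there and Psma7 51.5 CPM. That cluster had a median of 8363.5 UMIs per barcode, and the other two had 2880 and 2705. In those, in the same order, Psma8 was at 113 and 68.7 CPM and Psma7 at 21.3 and 19.9 CPM. The spermatogonial class was a single cluster led by Stra8, a gene that germ cells switch on before meiosis. Psmc3ip had the same order over the 3 clusters, with 568, 337 and 221 CPM, and in the class as a whole it was 4.58-fold above its level in spermatogonia (458 ± 35.3 CPM, SD, n = 6).

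**Figure D2:**
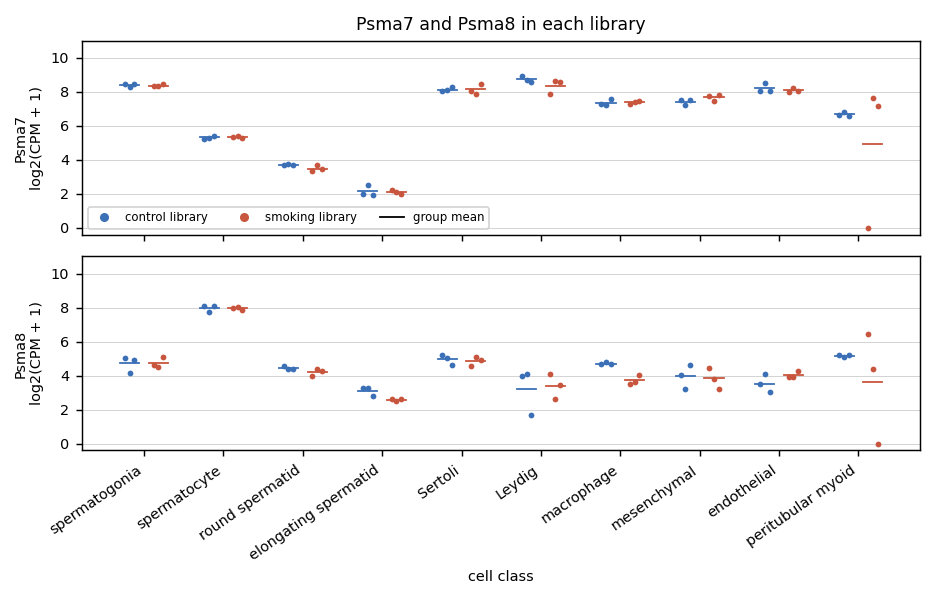
Points are single libraries, control in blue and smoking in red, with bars at the group means; the vertical axis is log2(CPM + 1) and the horizontal axis the cell class. Psma8 stands highest in spermatocytes (212 to 274 CPM) and Psma7 is low in all 3 meiotic and postmeiotic classes; smoking peritubular myoid library 1, with 45917 UMIs, had no Psma7 UMI and 4 Psma8 UMIs, and library 3 had no Psma8 UMI.

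In somatic classes Psma8 had 10.6 to 35.1 CPM. Free RNA released into the suspension, estimated from each library's summed profile scaled by its elongating spermatid transcripts, would by itself give 96.2% to 139% of the Psma8 level measured in these 6 classes. It would give 48.8% of the spermatogonial level. For Psma7 the same estimate was at most 19.9% in any somatic class and 3.63% in spermatogonia. Psma7 levels in somatic cells ran from 107 CPM in peritubular myoid cells to 382 CPM in Leydig cells, or 129 and 412 CPM without smoking library 1.

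The other α subunit genes were mostly lower in each later germ cell class, with the exception of Psma6. In elongating spermatids, 6 of the 7 α genes had means between 2.6 CPM (Psma1) and 26.4 CPM (Psma3). Psma2 was 66.5-fold lower there than in spermatogonia. Psma6, the α1 subunit gene (chr12:55384222-55418454, plus strand), went the other way. Its level in spermatogonia was 441, 515 and 474 CPM in control and 492, 513 and 438 CPM in smoking libraries. In elongating spermatids it was 1616, 1675 and 1720.3 CPM in controls and 1668, 1696 and 1753 CPM in smoking libraries, with a mean 3.53-fold above that of spermatogonia and no overlap. The log2 ratio of Psma6 to the 6 other α genes went from -1.55 ± 0.20 in spermatogonia through -0.91 ± 0.26 and 1.73 ± 0.09 to 5.05 ± 0.46 in elongating spermatids (SD, n = 6).

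The noncatalytic β genes Psmb1 to Psmb4 had 315 to 479 CPM in spermatogonia and 5.2 to 28.2 CPM in elongating spermatids. Psmb1 was 45.5-fold lower at the end of this series. The catalytic β genes kept more of their level into round spermatids. Psmb6, which provides caspase-like activity, had 360.4 CPM in spermatogonia, 458 in spermatocytes, 382 in round and 48.6 in elongating spermatids. Psmb5 (chymotrypsin-like) went from 319 to 289, 203 and 20.5 CPM, and Psmb7 (trypsin-like) from 240.5 to 179, 107 and 17.8 CPM. From spermatocytes to round spermatids Psmb5, Psmb6 and Psmb7 were 1.42-, 1.20- and 1.67-fold lower, against 6.48-, 2.61-, 3.17- and 2.48-fold for Psmb1 to Psmb4. From round to elongating spermatids Psmb5, Psmb6 and Psmb7 were 9.91-, 7.85- and 6.04-fold lower. At that step Psmb1 to Psmb4 were 2.77-, 8.67-, 4.42- and 3.04-fold lower.

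Among the 19S ATPases, which form the unfolding ring, Psmc2 and Psmc3 had the highest levels after meiosis. Psmc3 had 492, 828 and 882 CPM in the first 3 germ cell classes and 219 CPM in elongating spermatids. Psmc2 had 198 ± 7.14 CPM in spermatogonia, 369 ± 18.4 in spermatocytes, 382 in round and 281 in elongating spermatids, where libraries lay between 265 and 295 CPM (SD, n = 6). The 4 other ATPase genes were between 4.5 and 17.3 CPM in elongating spermatids. Psmd8, a lid subunit gene, was likewise kept, with 252 ± 9.19 CPM in spermatogonia, 401 ± 27.9 in spermatocytes and 313 ± 11.5 in elongating spermatids. The lid deubiquitinase gene Psmd14 was at 102 CPM in spermatogonia and 2.7 CPM in elongating spermatids, 37.6-fold lower, and Psmd4, a ubiquitin receptor gene, went from 311 to 74.4 CPM.

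The assembly chaperone genes differed in their timing. Psmd10, whose protein helps to build the ATPase ring, had 31.7 CPM in spermatogonia, 7.4 in spermatocytes and 54.6 in round spermatids, a 7.40-fold difference between the latter pair. Its round spermatid libraries lay between 52.1 and 60.6 CPM and its spermatocyte libraries between 5.54 and 8.55 CPM. Psmd5, of the same kind, was 5.83-fold lower in spermatocytes than in spermatogonia. Psmg1 to Psmg4, which guide the α ring, had 0.3 to 3.8 CPM in elongating spermatids.

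The regulators of the core parted as well. Psmf1 encodes PI31 (chr2:151715812-151744186, minus strand), an inhibitor of the isolated 20S core that also acts in proteasome transport. In spermatogonia it had 172, 209 and 154 CPM in controls and 224, 196 and 170.1 CPM in smoking libraries. In elongating spermatids it had 1421, 1288 and 1396 CPM in controls and 1417, 1462 and 1319 CPM in smoking libraries, 7.38-fold more on average and with no overlap. Psma6 and Psmf1 together held 7.32% ± 0.947 of the members' UMIs in spermatogonia and 67.0% ± 2.95 in elongating spermatids (SD, n = 6). With Psmc2 and Psmd8 the shares were 12.3% and 79.9%. None of the 4 genes overlaps another gene in the annotation, whereas 16 of the 50 members overlap another gene that was counted.

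**Figure D3:**
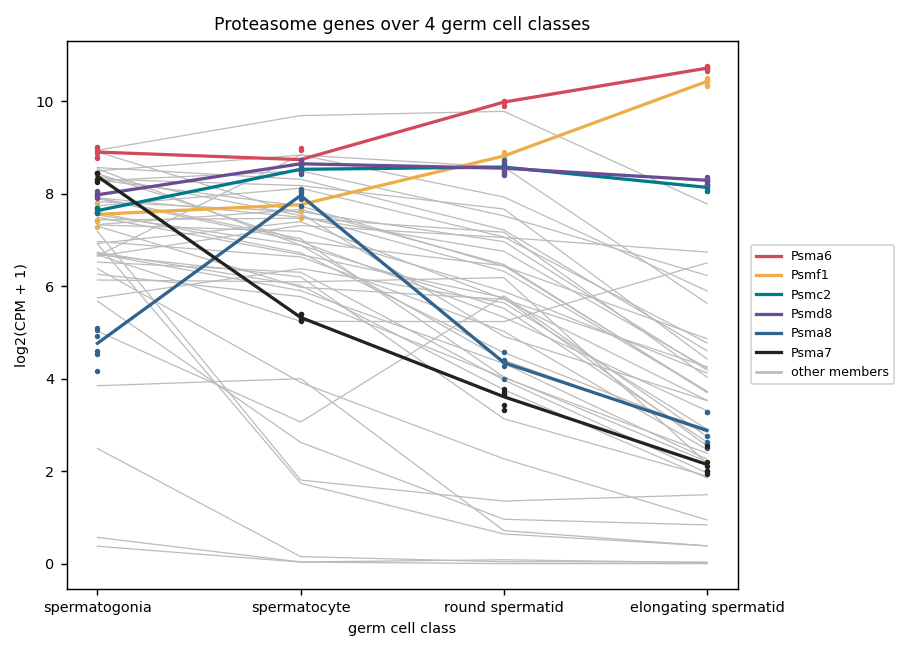
Lines give log2(mean CPM + 1) of each member over spermatogonia, spermatocytes, round and elongating spermatids, with points for the 6 libraries of the 6 coloured genes and grey lines for the other members (Psmb11, with 42 UMIs, is not drawn). Psma6 and Psmf1 climb to 1688 and 1384 CPM while most grey lines fall away.

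Over the whole course, 40 of the 47 members with at least 30 UMIs were lower in elongating spermatids than in spermatogonia without overlap of the libraries (85.1%). The same held for 58.0% of 15014 genes. Another 4 were higher (8.51% against 14.8% of genes): Psma6, Psmf1, Psmc2 and Psmd8. From spermatogonia to spermatocytes 11 of 47 members were higher and 26 lower, with 22.1% and 35.0% of all genes. From spermatocytes to round spermatids 3 of 46 were higher (Psma6, Psmf1 and Psmd10) and 34 lower, with 32.2% and 39.2% of all genes. From round to elongating spermatids 3 were higher (Psma6, Psmf1 and Psme3) and 39 lower, with 7.37% and 65.6% of all genes. These are relative levels: fewer molecules per cell and a larger share taken by other transcripts cannot be told apart in CPM.

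Free RNA was estimated for spermatogonia and the somatic classes, and not for spermatocytes or spermatids. For Psmf1 the estimated free RNA reached 93.7% to 113% of its level in the 6 somatic classes and 94.7% in spermatogonia. For Psma6 it was 62.8% to 87.1% in somatic classes and 56.7% in spermatogonia. In spermatogonia it was 50.2% for Psmc3ip, 41.9% for Psmc2, 38.6% for Psme4 and 35.7% for Psmd8. The spermatogonial levels given for these genes therefore include RNA that need not come from those cells.

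The 11S genes Psme1 and Psme2, whose products are induced by interferon and assist antigen processing, were far lower in spermatocytes than in spermatogonia, whereas Psme4 was kept. Psme1 had 186, 97.1 and 147 CPM in control and 152, 132 and 156 CPM in smoking spermatogonia, and 1.54 to 3.36 CPM in spermatocytes. Psme2 had 120.0 ± 33.2 and 2.3 ± 0.608 CPM in these classes (SD, n = 6). Psme4, the PA200 gene (chr11:30771726-30880361, plus strand), had 99.6 CPM in spermatogonia, 158 in spermatocytes, 132 in round and 106 in elongating spermatids. The log2 ratio of Psme1 plus Psme2 to Psme4 was 1.39 ± 0.36 in spermatogonia and -5.04 ± 0.36 in spermatocytes, a difference of -6.42 ± 0.56 (6 of 6 libraries, exact sign-flip permutation p = 0.03125, adjusted 0.0391). It was lower again in round spermatids, by 0.90 on the log2 scale (6 of 6 libraries, exact p = 0.03125, adjusted 0.0391). With barcodes weighted alike that difference was -0.66 with an exact permutation p of 0.125. Elongating and round spermatids differed by 0.24 ± 0.60 (exact permutation p = 0.375). Psme3, which forms the nuclear 11S cap, took a course of its own, with 102 CPM in spermatogonia, 36.8 and 36.7 in spermatocytes and round spermatids, and 90.0 in elongating spermatids. Psme2b is a near-identical copy of Psme2 with 37 UMIs in all, and reads of the 2 genes may have been split between them.

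Psmb8 and Psmb9 were at their highest in macrophages and endothelial cells, followed by Leydig cells with means of 24.6 and 16.3 CPM. Psmb10 had its highest mean in endothelial cells. It had 50.3 CPM in spermatogonia and 45.8 CPM in Leydig cells, within the range of the macrophage libraries. Psmb8, the inducible partner of Psmb5 (chr17:34197721-34201454, plus strand), had 101, 175 and 173 CPM in control and 167, 230.0 and 148 CPM in smoking macrophages. Psmb9, the inducible partner of Psmb6 (chr17:34181987-34187764, minus strand), had 45.8, 58.3 and 82.1 CPM in controls and 55.6, 122 and 67.7 CPM in smoking macrophages. Its RefSeq start lies 225 bases from that of Tap1, which encodes a peptide transporter of the MHC class I pathway and is read in the opposite direction. Psmb10, the inducible partner of Psmb7 (chr8:105935735-105938444, minus strand), had 33.6, 53.0 and 57.8 CPM in controls and 55.6, 51.1 and 49.3 CPM in smoking macrophages. The constitutive genes Psmb5, Psmb6 and Psmb7 had 120, 236 and 71.1 CPM in the same class. Free RNA was estimated at 57.3%, 51.4% and 56.7% of these levels, and at 0.80%, 0.98% and 4.29% for Psmb8, Psmb9 and Psmb10.

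The log2 ratio of the 3 inducible to the 3 constitutive genes was -0.60 ± 0.51 in macrophages, -3.38 ± 0.47 in Leydig cells, -3.12 ± 0.70 in mesenchymal cells, -4.14 ± 0.50 in spermatogonia and -5.81 ± 0.43 in Sertoli cells (SD, n = 6). Macrophages exceeded Sertoli cells by 5.21 ± 0.39, spermatogonia by 3.54 ± 0.94, Leydig cells by 2.78 ± 0.49 and mesenchymal cells by 2.52 ± 0.64. Each difference had the same sign in 6 of 6 libraries, with an exact permutation p of 0.03125 (adjusted 0.0391). Without smoking library 1 the difference from Leydig cells was 2.62 (exact permutation p = 0.0625, the smallest that 5 libraries allow). Endothelial cells had a ratio of -0.76 ± 0.38 and differed from macrophages by -0.16 ± 0.29. This pair was added after levels had been seen and was not tested, and with free RNA subtracted the difference was -0.96.

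**Figure D4:**
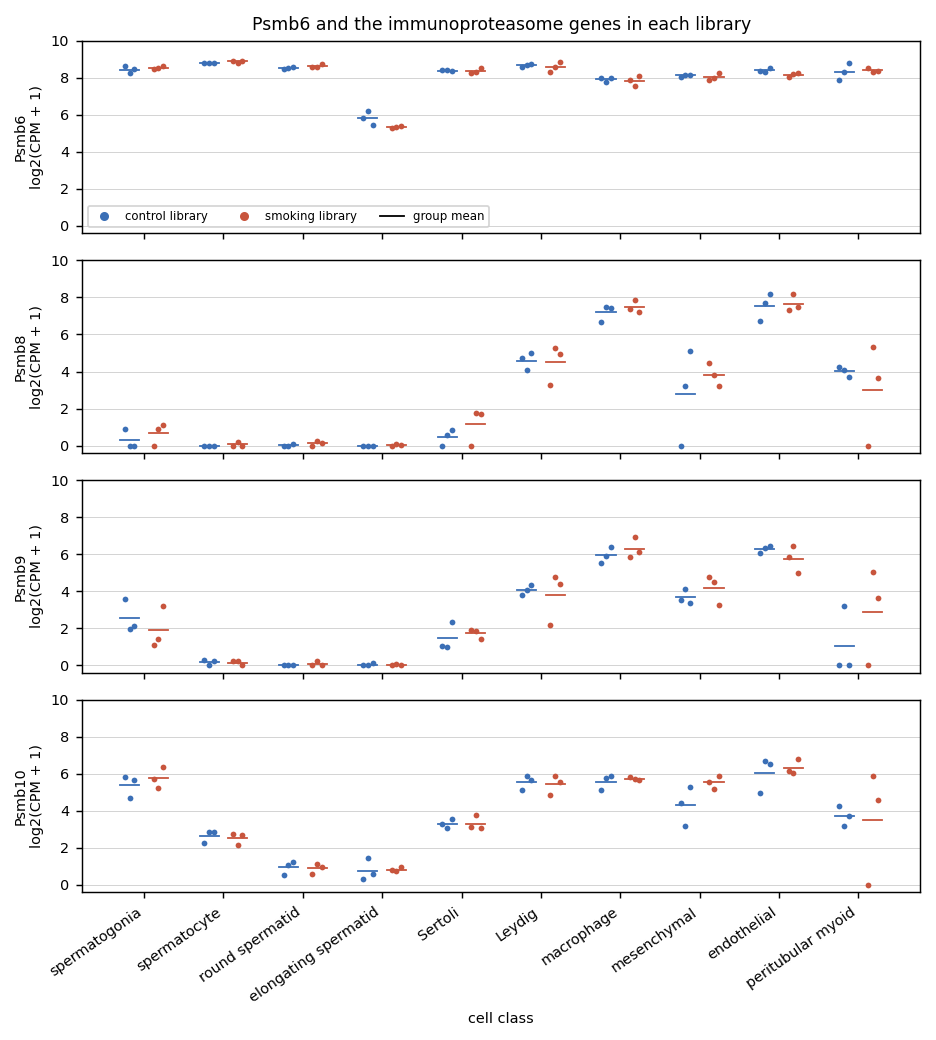
Each panel gives log2(CPM + 1) of a gene by cell class, with control libraries in blue, smoking libraries in red and bars at the group means. Psmb6 is present in all classes, Psmb8 and Psmb9 are high in macrophages and endothelial cells, and Psmb10 is also present in spermatogonia (24.5 to 82.7 CPM), where Psmb8 had 3 UMIs in all.

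Endothelial cells had 107, 209.8 and 289 CPM of Psmb8 in controls and 159.9, 285 and 178 CPM in smoking libraries. Their means were 205 CPM for Psmb8, 67.3 for Psmb9 and 78.3 for Psmb10, and the free RNA estimate made up 0.54% of the first, 0.91% of the second and 2.27% of the third. In macrophages the endothelial markers, 3 of 9 at 0, summed to 27.7 to 62.5 CPM over the 6 libraries, and of the T and NK cell markers none of 9 was at 0. Those T and NK markers summed to 42.4 to 137 CPM in control and 31.3 to 102 CPM in smoking macrophages, against 16165 to 22880.1 CPM for the 12 macrophage markers, and 5 B cell markers, 1 at 0, to 198 to 275 CPM in control and 146 to 206 CPM in smoking libraries. Their part in the Psmb8 level was not tested.

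Spermatogonia held Psmb10 with hardly any of its partners. Psmb10 had 56.4, 24.5 and 50.3 CPM in controls and 51.3, 36.5 and 82.7 CPM in smoking spermatogonia, from 294 UMIs. Psmb9 had a mean of 4.6 CPM from 28 UMIs, and Psmb8 had 3 UMIs, and free RNA alone was estimated to give 161% of them. The log2 ratio of Psmb10 to Psmb8 plus Psmb9 was 3.42 ± 0.90 in spermatogonia, 0.27 ± 0.58 in Leydig cells, -1.81 ± 0.61 in endothelial cells and -2.18 ± 0.28 in macrophages (SD, n = 6). It was also high in spermatocytes (4.73 ± 1.18), round spermatids (3.25 ± 0.91) and elongating spermatids (3.01 ± 1.19). Those classes had only 5, 7 and 4 UMIs of Psmb8 plus Psmb9. This ratio too was chosen after the levels had been seen and is a description. In spermatocytes Psmb10 was at 5.2 CPM, and in round and elongating spermatids at 0.9 and 0.8 CPM. Psmb8 had 1, 5 and 2 UMIs in these 3 classes. Annotated antisense genes overlap Psmb10 over 2710 bases and Psmb8 over 2139 bases.

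Psme1 and Psme2 were highest in Leydig cells, with 265 and 178 CPM, followed by endothelial cells with 206 and 154 CPM. Without smoking library 1 the Leydig means were 286 and 193 CPM. Sertoli cells had 22.2 CPM of Psme1 and 63.0 CPM of Psme2, and free RNA was estimated at 68.4% of all UMIs in that class, from 45.2% to 87.9% over the libraries.

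Psmb11, the β subunit of thymic epithelium, had 42 UMIs in all retained barcodes and at most 13 in any named class, and it passed the low-count filter nowhere. At this depth no level was measurable.

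Smoking was compared with control in each class by edgeR's quasi-likelihood test on summed counts, with Benjamini-Hochberg adjustment over all genes tested. No member passed an adjusted p of 0.05 in any of the 10 classes or in the sum of all retained barcodes. Between 22 (peritubular myoid) and 46 members were tested per class. In spermatocytes 343 of 12155 genes passed (2.82%), and 6 of 46 members had an unadjusted p under 0.05, as did 21.5% of all genes. Elsewhere 0 to 8 genes passed per class: 0.0104% of genes in spermatogonia, 0.0556% in elongating spermatids, 0.0186% in macrophages, 0.08% in mesenchymal cells and 0.237% in endothelial cells. In round spermatids, Sertoli cells, Leydig cells, peritubular myoid cells and all retained barcodes 0.0% passed. At that cut there were 15 of 43 members in elongating spermatids (18.3% of genes), 4 of 48 in all retained barcodes (12.3%) and 2 of 44 in round spermatids (14.1%). There were 2 of 41 in macrophages (5.62%), 2 of 38 in endothelial cells (6.03%), 1 of 35 in mesenchymal cells (4.64%) and 0 in the other classes (1.11% to 4.52%).

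In spermatocytes the member closest to the threshold was Psma6. Its level was 495, 507 and 423 CPM in controls and 374, 398 and 367 CPM in smoking libraries, with no overlap. The edgeR log2 fold was -0.32 ± 0.08 (SE, n = 3 against 3, adjusted p = 0.0513). Psmf1 had 248, 268 and 206 CPM in controls and 197, 206 and 177 CPM in smoking libraries, where the lowest control and the highest smoking library overlapped (log2 fold -0.31 ± 0.10, edgeR adjusted p = 0.0995). All 11 non-ATPase genes had positive folds, with Psmd8 at 0.15 ± 0.07 (edgeR adjusted p = 0.215). Over the 46 members, 32 folds were positive and the median was 0.07, beside 46.4% positive and a median of -0.02 over all genes. With the clusters of the class weighted alike in every library, 19 of 46 were positive and the median was -0.03, which turns the sign of the median. On the CPM scale 8 members were higher in every smoking library than in any control and 2 lower (Psma6 and Psme3), against 9.78% and 15.4% of all genes.

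Markers of elongating spermatids differed in the same libraries. The summed level of 13 such markers, none at 0, was 29911 to 47407 CPM in control and 24262 to 30528 CPM in smoking spermatocytes. The cluster with the highest Psma6 (700.3 CPM) gave at least 14.4% of the class's UMIs in controls and 10.4% to 12.2% in smoking libraries. The Sycp1-led cluster, with 299 CPM of Psma6, gave 48.7% to 64.2% and 62.8% to 65.4%. With the clusters given the same weights in every library the Psma6 fold was -0.21 (limma adjusted p = 0.0966). Any further part of these markers in the result was not tested.

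Control library 3 stood apart from the other controls in this respect, and leaving it out changed the calls. Without it 1654 of 12629 genes passed in spermatocytes (13.1%), among them 4 members by edgeR. Psma6 (-0.39, adjusted p = 0.00121) and Psmf1 (-0.41, adjusted p = 0.00363) fell, whereas Psmb1 (0.25, adjusted p = 0.0323) and Psmc3ip (0.22, adjusted p = 0.0374) rose. DESeq2 called Psma6 alone (-0.28, adjusted p = 0.0246), beside 8.36% of genes, and edgeR without a low-count filter called Psma6 and Psmf1, beside 5.71% of genes.

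In elongating spermatids most members were lower in smoking libraries, though none passed. Of 43 members tested, 8 had a positive log2 fold and the median was -0.29, beside 46.1% positive and a median of -0.04 over 10795 genes. Psmd1, the gene of a 19S scaffold subunit, had the smallest p. Its level was 9.89, 10.2 and 5.32 CPM in controls and 3.29, 3.93 and 4.53 CPM in the smoking group, from 378 UMIs (log2 fold -0.78 ± 0.22, edgeR adjusted p = 0.176). By role, the 3 catalytic β genes had folds of -0.29 to -0.28, the 4 noncatalytic β genes -0.65 to -0.03, and the 11 non-ATPase genes -0.78 to 0.20. The 4 members that were higher in elongating spermatids than in spermatogonia had positive folds: Psmf1 0.24, Psma6 0.23, Psmc2 0.23 and Psmd8 0.20. Psme3 was at 0.16 and Psme4 at -0.11. On plain CPM their group means lay close together, at 1368 and 1399 CPM for Psmf1, 1671 and 1705 for Psma6, 278 and 284 for Psmc2, and in reverse order at 315 and 312 for Psmd8 (control, then smoking). These values depend on the scale. The median of all genes on plain CPM was -0.20 in this class and -0.04 after the TMM scaling of edgeR, and on CPM 21 of 43 members were lower in every smoking library than in any control and 0 higher, against 26.4% and 2.71% of all genes.

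The composition of the class differed in the same libraries. The elongating cluster with the highest Psma8 and Psmb5 (18.5 and 64.9 CPM) gave 17.0% and 25.5% of the class's UMIs in control libraries 1 and 2, 6.3% in control library 3 and 2.7% to 5.0% in smoking libraries. Summed round spermatid markers (13, none at 0) were at 768 to 943 CPM in controls and 688 to 719 CPM in smoking libraries. Given the same cluster weights in every library, the median member fold was -0.16, with 7 of 43 positive, and that of Psmd1 was -0.41 (limma adjusted p = 0.606). Without control library 3, 1616 of 11326 genes passed by edgeR (14.3%), among them 11 members. Then Psmd1, Psmb2, Psma5, Psmb1, Psmd12, Psma3 and Psmb6 fell, with log2 folds from -1.04 (Psmd1, adjusted p = 0.0101) to -0.41 (Psmb6, adjusted p = 0.0433). Psmd8, Psmc2, Psmf1 and Psma6 rose, from 0.23 (Psmd8, adjusted p = 0.0465) to 0.34 (Psma6, adjusted p = 0.00497). Without a low-count filter edgeR called Psmd1 alone of the members, at -0.73 (adjusted p = 0.0417), beside 1.17% of genes.

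**Figure D5:**
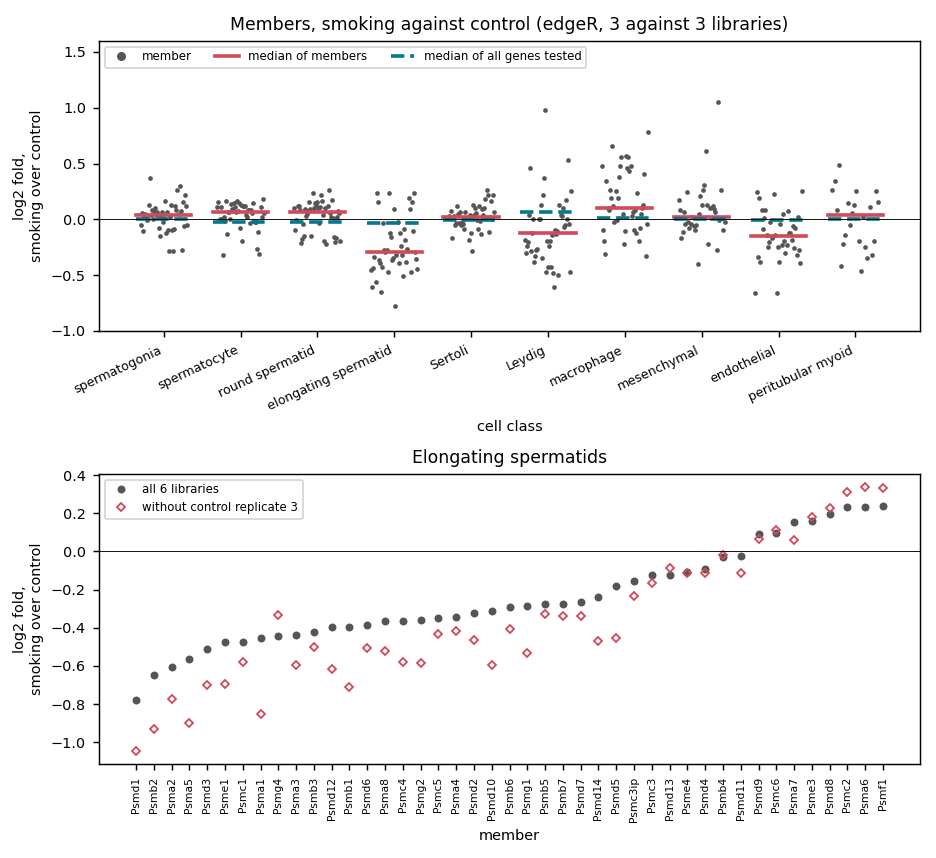
The upper panel gives the edgeR log2 fold of every tested member in each class, with the median of the members as a solid red line and of all tested genes as a dashed line; the lower panel orders the members in elongating spermatids and adds the fold without control replicate 3 as open diamonds. In elongating spermatids the median of members lies at -0.29 against -0.04 for all genes, and most diamonds lie farther from 0 than the filled points.

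Counts of members whose smoking and control libraries did not overlap on CPM were also taken in the remaining classes. Above every control were 0 members in spermatogonia, 3 in round spermatids, 1 in Sertoli cells, 0 in Leydig cells, 4 in macrophages, 2 in mesenchymal cells, and 0 in endothelial and in peritubular myoid cells. The shares of all genes were 3.94%, 6.54%, 2.97%, 1.96%, 4.19%, 4.14%, 4.11% and 1.66% in that order. Below every control were 4, 1, 0, 9, 1, 0, 3 and 2 members in the same classes, against 6.25%, 13.2%, 5.42%, 5.89%, 7.74%, 4.8%, 7.28% and 3.48% of all genes. The 9 in Leydig cells were of 45 tested, among them Psmb5, Psmc6 and Psmd14, and none passed the edgeR test. Without smoking library 1, with fewer libraries to separate, 11 of 45 were below and 1 above, against 9.85% and 6.04% of all genes. In peritubular myoid cells 3 of 22 were then below and 2 above, against 15.7% and 8.41%. In the sum of all retained barcodes, 2 of 48 members were above and 16 below, against 2.67% and 23.9% of all genes.

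In the other classes the member with the smallest p gave no adjusted p under 0.05. In round spermatids it was Psmc2, with 345, 357 and 371 CPM in controls and 398, 393 and 428 CPM in the smoking group (log2 fold of 0.23 ± 0.08, with an edgeR adjusted p of 0.327). The mix of clusters in this class differed too. Its cluster led by Gm48051 gave 7.1% to 15.7% of the class's UMIs in controls and 2.7% to 6.4% in smoking libraries. The ranges of its other clusters overlapped. In mesenchymal cells the member with the smallest p was Psmd7, the partner of the lid deubiquitinase. It had 114, 57.6 and 93.9 CPM in controls and 186, 167 and 236 CPM in smoking libraries. These 2 groups did not overlap, but the counts were 7 to 38 UMIs per library (log2 fold 1.05 ± 0.28, edgeR adjusted p = 0.273). In macrophages it was Psmb2, with 107, 111 and 161 CPM in controls and 191, 176 and 212 CPM in the smoking group (log2 fold of 0.66 ± 0.22, with an edgeR adjusted p of 0.752). In endothelial cells it was Psmc3 (-0.38 ± 0.17, edgeR adjusted p = 0.784). In spermatogonia it was Psmd14, with 127, 103 and 108 CPM in controls and 86.3, 85.8 and 103 CPM in smoking libraries (-0.28 ± 0.14, edgeR adjusted p = 0.999). In Sertoli cells it was Psmd1 (-0.28 ± 0.15), and in Leydig and peritubular myoid cells Psmc3ip (0.98 ± 0.46 and -0.46 ± 0.34), with edgeR adjusted p-values of 0.904 or more. Without smoking library 1 the Leydig value was 0.36 and the myoid value -0.45. In the sum of all retained barcodes it was Psmf1, with 583 to 721 CPM in controls and 738 to 768 CPM in smoking libraries (0.45 ± 0.14, edgeR adjusted p = 0.371). That sum mixes the level per cell with the share of elongating spermatids. In controls this class gave 4345824, 3541416 and 12226994 of the 36477688, 35541243 and 49087267 UMIs. In smoking libraries it gave 13660816, 16800906 and 27138802 of 48706566, 55941769 and 69686242. Within the class the group means of Psmf1 on CPM lay close together, as given above. The part of the class share in the Psmf1 difference was not tested.

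For the exchange of Psma8 and Psma7 and the inducible catalytic genes, no difference between the groups passed a test. In spermatocytes the log2 ratio of Psma8 to Psma7 was 2.68 in controls and 2.65 in smoking libraries, a difference of -0.03 (exact permutation p = 0.7, of which 3 against 3 libraries cannot give less than 0.1). The ratio did not overlap between the groups in elongating spermatids (a difference of -0.53, 430 Psma8 UMIs), macrophages (-2.62 in control and -3.61 in smoking libraries, 33 UMIs) and endothelial cells (a difference of 0.54, 18 UMIs), each with an exact permutation p of 0.1, or 0.962 adjusted over 33 comparisons. In spermatocytes the fold of Psma8 itself was -0.01 ± 0.09 (edgeR adjusted p = 0.95). In macrophages the folds were 0.38 ± 0.24 for Psmb8, 0.48 ± 0.31 for Psmb9 and 0.20 ± 0.32 for Psmb10, with edgeR adjusted p-values of 0.901, 0.901 and 0.942. Their ratio to Psmb5, Psmb6 and Psmb7 differed by 0.24 (exact permutation p = 0.7), and by -0.69 when free RNA was subtracted. Whether smoking acted differently on a member in successive germ cell classes was tested with limma. No member and 0.0% of all genes passed in any of the 3 pairs, and the lowest adjusted p of a member was 0.359 for spermatocytes against spermatogonia, 0.276 for round spermatids against spermatocytes and 0.42 for elongating against round spermatids. At an unadjusted p under 0.05 there were 1 of 46, 1 of 44 and 4 of 43 members, beside 11.2%, 16.6% and 11.6% of all genes.

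A further 6 lists of genes that work with the proteasome were followed: 25 proteasome partners (22 in the files), 6 genes of ubiquitin supply, 12 ubiquitin genes of the testis, 10 of MHC class I processing, 10 of the interferon γ response and 10 of the Nrf2 response. Over all classes 1 gene of these lists passed, Klhl10 in spermatocytes, beside 2.82% of all genes there. It encodes a germ cell adaptor of the Cul3 ubiquitin ligase and fell, with 87.7, 88.8 and 60.9 CPM in controls and 54.2, 54.5 and 50.8 CPM in the smoking group (log2 fold of -0.56 ± 0.13, with an edgeR adjusted p of 0.0474). The spermatid markers given above moved in the same libraries. Among proteasome partners in spermatocytes 15 of 21 folds were positive (median 0.10), with Ngly1, a deglycosylase gene, at -0.31 ± 0.08 (edgeR adjusted p = 0.0631). In the other lists in spermatocytes, 3 of 6 genes of ubiquitin supply, 5 of 12 testis ubiquitin genes, 3 of 6 of MHC class I processing, 3 of 5 of the interferon γ response and 4 of 5 of the Nrf2 response were positive. The members of these lists closest to the threshold included Tapbp (0.35 ± 0.11, edgeR adjusted p = 0.0866), which encodes a peptide-loading factor, and Srxn1 (-0.54 ± 0.17, 0.0977), a redox enzyme gene.

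In spermatogonia 9 of 22 partners were positive and in round spermatids 12 of 20. In elongating spermatids the 19S subunit gene Sem1 was at -0.49 ± 0.15 (edgeR adjusted p = 0.185) and Calr, an ER chaperone gene, at -0.57 ± 0.14 (0.152). There 10 of 19 partners were positive, with a median of 0.06, beside the -0.29 of the members. In macrophages 6 of 7 genes of MHC class I processing and 6 of 7 of the interferon γ response had positive folds, with medians of 0.23 and 0.31 beside 0.02 over all genes, and none passed. The 12 macrophage markers of that class were at 16165 to 19095 CPM in control and 19434 to 22880.1 CPM in smoking libraries, and 9 mesenchymal markers, 1 at 0, at 284 to 347 and 369 to 514 CPM. Their part in these folds and in those of Psmb8 to Psmb10 was not tested.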

How the data were processed

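The 6 deposited matrices hold UMI counts per gene and barcode, which the authors made with Cell Ranger on mm10. Cell Ranger 7.1.0 and CASAVA 1.8 are given in the submitters' processing notes, but version 3.1.0 per the file headers; annotation and further filters are not given in the sources used here. Barcodes with over 20% of UMIs from mitochondrial genes (2459) and 3935 ranked highest by their share of simulated doublets among 50 neighbours, 95 of them in both sets, were removed; limits of 500 UMIs and 300 genes removed none. All barcodes had been clustered before this removal (scikit-learn 1.9.0, leidenalg 0.10.2, 2000 variable genes without the members, 30 components, 20 neighbours, Leiden resolution 1) into 36 clusters. A cluster was named when at least 3 markers of a type led it by a log2 fold of 1 and were in 20% of barcodes. These had to be at least 2 times as many as those of the next type. No other type could have more markers among the leading genes. In addition, 2 further naming limits were set after the clusters were seen. UMIs were summed per class and library and tested with edgeR 4.0.16 (TMM, filterByExpr, quasi-likelihood, Benjamini-Hochberg 0.05); limma 3.58.1 and DESeq2 1.42.0 served for other fits. Ratios used a pseudocount of 0.5 UMIs and exact permutation or sign-flip tests, two-sided. Libraries held 39607204 to 78455606 UMIs, with class sums as small as 45917, and intervals from counts would cover counting error only. The scripts were tested on simulated data. The alternatives were other size factors, no low-count filter, DESeq2, each library left out, Leiden resolution 2, members kept for clustering, doublets kept, free RNA subtracted, clusters weighted alike, barcodes weighted alike and a pseudocount of 1. Named genes were those of the ratios, the member with the smallest p in each class, and the highest and lowest members of each role; others were chosen after their values were seen. The members, lists, motifs and ratios were chosen with earlier results of these data known. Some genes of the further lists are not reported here.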

Additional observations from a re-analysis of the deposited data

How the results depend on the processing

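The number of members past the edgeR threshold was 0 in all classes and settings other than the following. In spermatocytes it was 2 without a low-count filter and 1 with DESeq2, and it ranged from 0 to 4 over the libraries left out, with 4 without control library 3. In elongating spermatids it was 1 without the filter (Psmd1) and ranged from 0 to 11 over the libraries left out, with 11 without control library 3. In all retained barcodes DESeq2 called 3 (Psmc2, Psma6 and Psmf1), among 26.1% of the genes it tested. Leaving out a library gave 0 in every other class.

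The log2 ratio of Psma8 to Psma7 in elongating minus round spermatids, 0.07 over all libraries, ranged from -0.0212 (without control library 1) to 0.14. The fall of the Psme1 and Psme2 ratio from spermatocytes to round spermatids was -0.66 with barcodes weighted alike (exact permutation p = 0.125). The smoking difference in the macrophage ratio of inducible to constitutive genes, 0.24, was -0.69 with free RNA subtracted and ranged from -0.11 to 0.46 over the libraries left out. The cause of these shifts was not tested. The Psma6 ratio to the other α genes, round spermatids minus spermatocytes, was 1.46 with barcodes weighted alike in the place of 2.64. The differences in the ratios between spermatocytes and spermatogonia, and between macrophages and the other classes, kept their direction in all settings.

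No paired analysis was possible because the libraries of the 2 groups share no label that ties them to each other. Depth limits most of all the peritubular myoid class, where smoking library 1 held 20 barcodes with 305 CPM of the class's own markers, and Psmb8 to Psmb10 in germ cells.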
